A study of Homo sapiens with 54 samples.

Results

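Low-dose cisplatin (CDDP, 1 μM) in olaparib-resistant (OlaR) MDA-MB-468 cells was described across all expressed genes, from the 3 libraries of OlaR cells given CDDP and the 3 libraries of OlaR cells without it, 6 of the 54 libraries of the series. MDA-MB-468 is an established basal-like triple negative breast cancer (TNBC) line that the labels give as BRCA1 wild type. All 6 libraries came from cells kept in 15 μM olaparib, an inhibitor of the repair enzymes PARP1 and PARP2, so that the only labelled difference was 1 μM CDDP, added overnight. There was no OlaR library without olaparib, the resistant cells were a derived population raised under increasing olaparib, and the labels do not say whether the 3 libraries of a condition came from separate cultures, so p-values measured the spread between libraries only. Another pair of comparisons was set beside it. The first was 1 μM CDDP added to 3 μM olaparib in parental MDA-MB-468 cells, which shares no library with the OlaR comparison. The other was 2.5 μM CDDP in the same OlaR cells, which shares the 3 libraries without CDDP.

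CDDP forms adducts within and between DNA strands, which block replication forks and RNA polymerase and are removed by excision repair, Fanconi anemia proteins and homologous recombination. Cells that meet such lesions usually delay in S or G2 phase, where genes of DNA replication are controlled largely by E2F factors and mitotic genes by complexes that bind CCAAT boxes and cell cycle genes homology region (CHR) elements. Amino acid shortage and protein folding stress act on another set of genes through the factor ATF4.

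The libraries measured the 3′ ends of polyadenylated RNA and held 4588288 to 4676284 reads without CDDP and 3063603 to 4647762 with it, and the lowest depth was that of replicate 3 with CDDP. Values are given as adjusted reads, the deposited read counts set by the authors to a common library size of 5585170. Log2 values of libraries of the same condition correlated at 0.98 across genes, and those of different conditions at 0.98 as well (0.976 to 0.978 against 0.981 to 0.983). The basal and epithelial genes of the line were present, with *KRT5* at 3037 to 3760 and *EPCAM* at 3456 to 3793 adjusted reads, while of 5 markers of other cell types *PTPRC* (leukocytes) and *COL1A2* (fibroblasts) had no read in any of the 6 libraries, *PDGFRB* had 0 to 2, *PECAM1* (endothelium) 1 to 10 and *COL1A1* (fibroblasts) 18 to 30. Of the receptors whose absence defines TNBC *PGR* had 0 reads and *ERBB2* 4 to 14, whereas *ESR1* had 91 to 182. Of the tumor suppressors known to be lost in the line *SMAD4* had 0 to 9 reads and *RB1* 6 to 24.

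Of 13012 genes tested, CDDP at 1 μM gave 51 differentially expressed genes (DEGs, adjusted p of at most 0.05 and at least 2-fold), 29 higher (0.223% of the genes tested) and 22 lower (0.169%). Without the limit on the fold change 240 genes were higher (1.84%) and 379 were lower (2.91%), and the median log2 fold change of all genes was -0.01. Most changes were therefore smaller than 2-fold, as the plot of fold change against adjusted p shows. The libraries with and without CDDP did not overlap for 23.3% of all genes tested, so that a lack of overlap alone set few genes apart. The quasi-likelihood test of edgeR on whole reads recovered from the deposited values called 370 genes, 132 higher and 238 lower, of which 367 were among the 619 called here, and 21 DEGs (9 higher and 12 lower). Without replicate 2 or replicate 3 with CDDP the limma count of higher DEGs was 13 and 17.

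**Figure D1:**
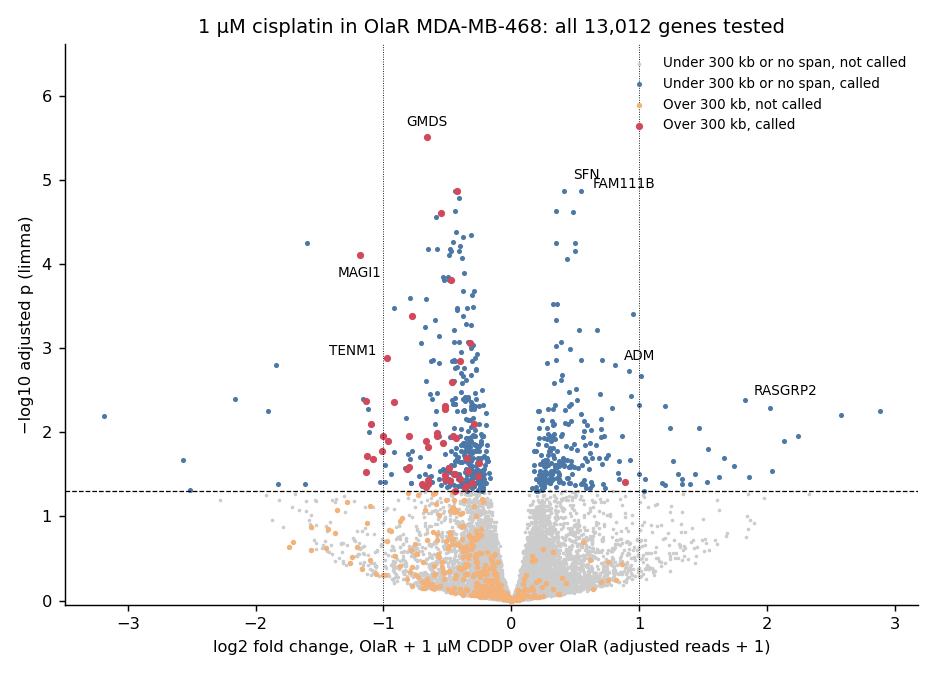
Log2 fold change of OlaR cells with 1 μM CDDP over OlaR cells (horizontal) against -log10 of the adjusted p of limma (vertical) for 13012 genes, with genes that span over 300 kb in orange and red. The called genes of that class, in red, lie to the left of 0 except for 1 of 52, and few called genes lie beyond the dotted 2-fold lines.

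The DEGs with the largest fold changes were genes of low counts. In 18 of the 51 DEGs, 11 higher and 7 lower, every library of a group had at most 3 reads, which holds for *RASL10A*, *AMIGO1*, *CA3* and *MORF4L2-AS1*, and their fitted fold changes are no bounds. Among DEGs that averaged at least 10 adjusted reads and did not overlap, *RASGRP2*, an exchange factor for RAP1, was at 8.2, 1.6 and 8.3 adjusted reads without CDDP and at 27.1, 18.3 and 17.2 with it (log2 fold change 1.83 ± 0.41 SE, adjusted p = 0.00419). Without OlaR replicate 2, the lowest library, its log2 fold change was 1.22 and the call was lost (adjusted p = 0.0938). *SLC46A1*, the proton-coupled folate transporter, averaged 11.7 ± 0.651 adjusted reads (S.D., n = 3) without CDDP and 29.3 ± 4.88 with it (log2 fold change 1.24, adjusted p = 0.00903). *TREX1*, a 3′ exonuclease that degrades cytosolic DNA, averaged 12.9 ± 3.85 without and 34.0 ± 9.23 with CDDP (log2 fold change 1.33, adjusted p = 0.0357). The other 9 of the 12 named by size were *TPGS1*, *ZNF155*, *KIF5C*, *DNAJC17*, *SCNM1*, *SLC26A11*, *TMEM45B*, *ARHGEF40* and *ADAMTSL5*, with log2 fold changes from 1.03 to 1.66. In parental cells none of the 29 higher DEGs was called by limma, where 2.3% of all genes were higher and 2.97% lower, so that the count is near that of all genes, and their log2 fold changes ranged from -0.81 to 0.89.

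Under the same limits of at least 10 adjusted reads on average and no overlap, the 12 DEGs that fell most were *LOC101929705*, *MAGI1*, *NRP1*, *PRKCE*, *SLC24A3*, *ROR1*, *PSEN2*, *DHFR2*, *THSD4*, *GRIP1*, *SLC5A1* and *NCALD*. *MAGI1*, a scaffold protein of cell junctions (chr3:65353526-66038918, GRCh38), was at 97.3, 94.0 and 136 adjusted reads without CDDP and at 49.0, 56.6 and 36.6 with it (log2 fold change -1.19 ± 0.20 SE, adjusted p = 7.86e-05). The lack of overlap in these genes was set by how they were chosen. *PRKCE*, protein kinase C epsilon (chr2:45651279-46187990), averaged 53.8 ± 9.48 without CDDP and 23.8 ± 3.79 with it (log2 fold change -1.14, adjusted p = 0.00421). *ROR1*, a receptor of Wnt5a, had a log2 fold change of -1.13 (adjusted p = 0.0191). That of *NRP1*, a co-receptor of semaphorins and VEGF, was -1.16, and -0.61 without replicate 2 with CDDP (adjusted p = 0.139). *PSEN2*, a catalytic subunit of gamma-secretase, averaged 26.7 ± 9.17 without CDDP, 11.5 ± 3.01 at 1 μM and 31.1 ± 6.22 at 2.5 μM. *PSEN2* fell at the low dose (adjusted p = 0.00535) and was higher at 2.5 μM than at 1 μM (adjusted p = 0.000262). *LOC101929705*, a locus without a known function, was also lowest at 1 μM, with means in the order of dose of 28.2 ± 8.21, 8.94 ± 3.71 and 25.7 ± 9.07. Both genes were chosen for their fall at 1 μM. The comparison of the doses uses the same libraries at 1 μM, so the choice favours a rise in it. By edgeR the fall of *PSEN2* was not called (adjusted p = 0.0549), nor by limma without OlaR replicate 2 (adjusted p = 0.076). Of these 24 named DEGs only *SLC46A1*, *SLC26A11*, *LOC101929705*, *MAGI1* and *PRKCE* passed the test in all 6 fits that left out 1 library. Without OlaR replicate 1, 2 and 3 the calls of 10, 11 and 10 of the 24 were lost, and without replicate 1, 2 and 3 with CDDP those of 9, 11 and 14, with adjusted p up to 0.263 for *ADAMTSL5*.

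Genes that span long stretches of the genome were lower with CDDP. Of 390 tested genes over 300 kb, 51 fell and 1 rose, that is 13.1% lower against 2.91% of all genes tested, and their median log2 fold change was -0.28 against -0.01 for all genes. Of 1821 genes of 100 to 300 kb 84 fell and 5 rose (median -0.10), of 3983 genes of 30 to 100 kb 119 fell and 59 rose (median -0.03), and of 3671 genes of 10 to 30 kb 69 fell and 79 rose (median 0.03). Genes under 10 kb went the other way in number, with 54 lower and 95 higher of 2941 (median 0.06). The DEGs showed the same split in span. Of the 22 lower DEGs 20 had a known span, with a median of 162 kb. The 29 higher DEGs had a median span of 16.7 kb, against 28.6 kb for all genes tested. Spans were taken from the RefSeq annotation of GRCh38.p14 for 12806 of the 13012 genes.

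*GMDS*, which encodes the enzyme that starts the synthesis of GDP-fucose, had the smallest p of all genes and was named after its value was seen. The gene spans 622 kb (chr6:1623806-2245605) and was at 724, 729 and 748 adjusted reads without CDDP, at 507, 452 and 437 with 1 μM and at 265, 294 and 288 with 2.5 μM. Each dose lay below the one before it without overlap (log2 fold change at 1 μM -0.66 ± 0.08 SE, adjusted p = 3.09e-06). *TENM1*, a teneurin of 828 kb on chromosome X, was at 217, 200 and 192 without and at 101, 103 and 105 with 1 μM CDDP (log2 fold change -0.97, adjusted p = 0.00133), and at 42.0, 43.5 and 54.2 with 2.5 μM. *ITFG1*, *NFIA*, *ATXN1*, *PPP3CA*, *GSE1*, *FNDC3B* and *SHANK2* fell as well, and these 7 genes, with *GMDS*, *TENM1*, *MAGI1* and *PRKCE*, are 11 of the 12 of the 51 that passed in every fit without 1 library. *KLF8*, a zinc finger factor that averaged 50 to 200 adjusted reads over the 27 libraries, was the gene over 300 kb that rose (log2 fold change 0.89, adjusted p = 0.0388). It was not called by edgeR, DESeq2 or voom, which called 36, 46 and 23 genes over 300 kb lower and 0 higher.

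The count of 51 depended on which libraries were fitted. It was 76 with only the groups compared and 57 with only the 9 OlaR libraries. When 1 library was left out, the count was 25 without OlaR replicate 1 and 27 without OlaR replicate 2. It was 26 and 29 without replicates 2 and 3 with CDDP, whereas the median of the class stayed between -0.29 and -0.28 in the 6 fits without 1 library. The decrease was present at each level of expression. The median of genes over 300 kb was -0.44 for 154 genes that averaged under 50 adjusted reads over the 27 libraries, -0.29 for 148 genes from 50 to 200 and -0.15 for 88 genes of 200 or more. Genes over 300 kb took 1.15%, 1.14% and 1.15% of all reads in the libraries without CDDP and 1.00%, 0.990% and 0.990% in those with it. With 2.5 μM CDDP the shares were 0.742%, 0.778% and 0.771%.

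**Figure D2:**
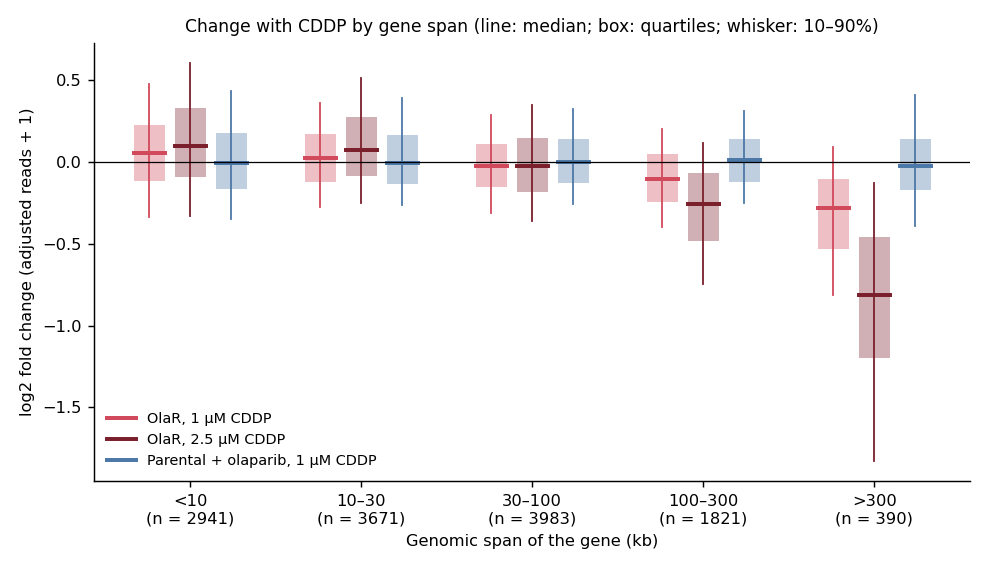
Log2 fold change (vertical) of genes grouped by genomic span in kb (horizontal) in OlaR cells with 1 μM or 2.5 μM CDDP and in parental cells with olaparib and 1 μM CDDP, with the median as a line, the quartiles as a box and the 10th to 90th percentile as a whisker. The medians of the class over 300 kb are -0.28, -0.82 and -0.03, and those of the class under 10 kb are 0.06, 0.10 and -0.01.

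In parental cells with olaparib the same 390 genes held 3 that fell and 5 that rose with 1 μM CDDP, with a median of -0.03, against 2.97% lower and 2.3% higher of all genes. Their share of reads was 1.15%, 1.12% and 1.14% without and 1.11%, 1.17% and 1.16% with CDDP, so that the values overlapped. The test of the difference between OlaR and parental cells called 13 of the 390 genes, all of them with the more negative change in OlaR cells, among them *MAGI1* (difference in log2 fold change -1.12 ± 0.28 SE, adjusted p = 0.0144) and *ITFG1* (-0.54, adjusted p = 0.00387). Across all genes that test called 1.39% in the positive and 1.51% in the negative direction. For *GMDS* the difference of -0.36 did not pass (adjusted p = 0.0807), since it was lower in parental cells also (log2 fold change -0.30, adjusted p = 0.0231). The parental libraries were deeper, with 5948122 to 9268162 reads. The part of depth, of the olaparib dose, which was 15 μM against 3 μM, and of how the cells were derived in this difference was not tested, and resistance and olaparib dose cannot be told apart.

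Mitotic genes were lower. Of 33 G2/M and mitotic genes tested 13 fell and none rose by limma (39.4% lower against 2.91% of all genes). At an unadjusted p under 0.05 the counts were 22 lower and 0 higher, edgeR called 12 lower and 0 higher, and the median log2 fold change was -0.22. They were *CCNB1* (cyclin B1), the kinases *PLK1*, *AURKA* and *NEK2*, the kinesins *KIF20A*, *KIF14* and *CENPE*, the centromere histone *CENPA*, the spindle proteins *TPX2* and *DLGAP5*, and *CDC20*, *UBE2C* and *PTTG1* of the anaphase-promoting complex and its substrates. *CENPE* was at 825, 829 and 811 adjusted reads without CDDP and at 563, 565 and 509 with it (log2 fold change -0.59 ± 0.09 SE, adjusted p = 2.80e-05). *KIF20A* averaged 382 ± 29.2 without and 241 ± 31.8 with CDDP (log2 fold change -0.67, adjusted p = 0.000258). The groups did not overlap in either gene. *AURKA* fell from 1046 ± 27.3 to 793 ± 19.3, and *CCNB1* from 1167 ± 97.0 to 923 ± 56.5. In bulk libraries fewer cells in mitosis and less of these transcripts per cell cannot be told apart. *PLK1* lost its call without OlaR replicate 1 or 2 or replicate 2 or 3 with CDDP (adjusted p up to 0.268), and *CENPA* without OlaR replicate 1 or 2 or replicate 2 with CDDP (up to 0.136). *KIF14* lost it without OlaR replicate 1 or 3 or replicate 2 with CDDP (up to 0.0825), and *CDC20* without OlaR replicate 2 or replicate 1 with CDDP (up to 0.0971), whereas the other 9 were called in all 6 fits.

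Genes of DNA replication rose. Of 30 E2F targets and replication genes 10 were higher and none was lower by limma (33.3% higher against 1.84% of all genes), also at an unadjusted p under 0.05, and edgeR called 9 higher and 0 lower, with a median log2 fold change of 0.16. *FAM111B*, a protease induced in S phase, was at 865, 803 and 822 adjusted reads without CDDP and at 1207, 1214 and 1221 with it (log2 fold change 0.55 ± 0.08 SE, adjusted p = 1.38e-05). *CDC6*, which loads the replicative helicase, averaged 571 ± 21.6 without and 773 ± 5.18 with CDDP (log2 fold change 0.44, adjusted p = 8.82e-05). *RRM2*, the regulatory subunit of ribonucleotide reductase, averaged 2706 ± 67.3 without and 3450 ± 121 with it (log2 fold change 0.35, adjusted p = 2.33e-05). No library with CDDP overlapped one without it in these 3 genes. The helicase subunits *MCM3*, *MCM4* and *MCM5*, the licensing factor *CDT1*, *GINS2*, *TK1* (thymidine kinase) and *CCNE2* (cyclin E2) were the other 7. Of the 10, *CCNE2*, *CDT1*, *GINS2*, *MCM5* and *TK1* lost the call without at least 1 library. 6 of the 10 remained without OlaR replicate 1, 6 without OlaR replicate 2 and 5 without replicate 2 with CDDP. *CLSPN* (claspin, of the ATR checkpoint), *CDC25A* and *FEN1*, a flap endonuclease, belong to other lists and rose too, with log2 fold changes of 0.48, 0.54 and 0.35, although *CDC25A* did not pass without OlaR replicate 3 (adjusted p = 0.0516).

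Both lists held more calls in parental cells given olaparib and the same CDDP dose, with 24 of 33 mitotic genes lower (median -0.38) and 22 of 30 replication genes higher (median 0.42). Of all genes 2.97% were lower and 2.3% higher there. The difference between the cells passed the test for 3 of the 33, all positive, and for 3 of the 30, all negative, against 1.39% and 1.51% of all genes. For *CCNB1* the log2 fold change was -0.34 in OlaR and -0.85 in parental cells (difference 0.52 ± 0.09 SE, adjusted p = 0.000465). With 2.5 μM CDDP in OlaR cells 22 mitotic genes were lower and 20 replication genes were higher, against 11.2% and 7.43% of all genes.

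Promoters of genes from both lists are shown because E2F and CHR elements are known to control genes of these kinds. The sequences are the 250 bases before the start of the gene in RefSeq (GRCh38.p14, 5′ to 3′ on the strand of the gene), with matches to an E2F element in capitals for *CDT1* (chr16:88803539-88803788, plus strand) and *GINS2* (chr16:85688955-85689204, minus strand), and matches to a CHR in capitals for *CDC20* (chr1:43358731-43358980, plus), *PLK1* (chr16:23678639-23678888, plus) and *CENPA* (chr2:26785806-26786055, plus).
CDT1: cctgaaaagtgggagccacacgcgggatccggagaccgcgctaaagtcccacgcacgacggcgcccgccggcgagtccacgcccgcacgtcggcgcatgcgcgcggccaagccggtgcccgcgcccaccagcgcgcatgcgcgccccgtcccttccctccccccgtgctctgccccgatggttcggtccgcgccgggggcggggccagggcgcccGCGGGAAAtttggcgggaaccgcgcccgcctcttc
GINS2: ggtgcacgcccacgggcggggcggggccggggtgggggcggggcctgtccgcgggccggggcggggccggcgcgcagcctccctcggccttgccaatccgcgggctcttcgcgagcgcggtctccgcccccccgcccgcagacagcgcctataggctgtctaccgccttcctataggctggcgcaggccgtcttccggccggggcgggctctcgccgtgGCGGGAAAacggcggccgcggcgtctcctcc
CDC20: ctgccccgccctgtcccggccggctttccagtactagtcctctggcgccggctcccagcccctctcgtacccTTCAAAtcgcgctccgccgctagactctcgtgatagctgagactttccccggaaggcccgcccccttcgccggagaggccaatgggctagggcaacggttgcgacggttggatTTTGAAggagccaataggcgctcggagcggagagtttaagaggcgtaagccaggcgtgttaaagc
PLK1: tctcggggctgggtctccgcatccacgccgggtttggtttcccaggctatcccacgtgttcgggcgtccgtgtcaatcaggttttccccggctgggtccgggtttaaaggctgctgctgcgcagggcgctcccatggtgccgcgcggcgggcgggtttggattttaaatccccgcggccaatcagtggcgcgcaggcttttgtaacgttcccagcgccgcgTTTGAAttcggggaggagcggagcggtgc
CENPA: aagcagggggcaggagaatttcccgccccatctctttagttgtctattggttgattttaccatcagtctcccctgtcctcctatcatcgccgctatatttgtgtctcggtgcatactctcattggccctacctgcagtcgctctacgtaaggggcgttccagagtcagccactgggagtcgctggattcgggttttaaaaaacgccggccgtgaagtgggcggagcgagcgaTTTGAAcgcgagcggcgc

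The E2F matches begin 35 and 31 bases before the start, and the CHR matches begin 65 and 178 bases before it in *CDC20*, 29 in *PLK1* and 18 in *CENPA*. The letters searched on both strands were TTTGGCGC, TTTCCCGC, TTTCGCGC or TTTGCCGC for E2F, TTTGAA for the CHR and CCAAT for the CCAAT box. An E2F match was present in 3 of 6 promoters of the replication genes that rose and had an entry, and in 4.6% of 10213 promoters of all genes tested. A CHR match was present in 4 of 10 promoters of the mitotic genes that fell against 8.5%, and a CCAAT box in 9 of 10 against 35.4%. In all 27305 promoters of that length the shares were 2.79%, 13.6% and 33.0%. In the whole lists, called or not, an E2F match was present in 12 of 24 promoters of replication genes (50%). A CHR match was present in 13 of 27 promoters of mitotic genes (48.1%), and a CCAAT box in 21 of 27 (77.8%). The shares therefore describe the lists and do not tie a match to the change with CDDP. All promoters shown carry a match. A match describes the letters only.

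ATF4 and stress response genes were called higher in parental cells for the larger part, and both higher and lower in OlaR cells. Of 25 genes 3 rose and 3 fell with 1 μM CDDP in OlaR cells, with a median log2 fold change of 0.10. In parental cells with olaparib 16 rose and none fell by limma, with a median of 0.41 (19 higher and 2 lower at an unadjusted p under 0.05, and 17 and 0 by edgeR). The difference passed the test for 9 of the 25, all in the negative direction. Of all genes 1.84% were higher and 2.91% lower in OlaR cells and 2.3% and 2.97% in parental cells, and the difference was called negative for 1.51%. *CHAC1*, which degrades glutathione and is a known target of ATF4, was at 70.6, 71.3 and 76.2 adjusted reads in OlaR cells and at 91.7, 68.6 and 86.9 after CDDP (log2 fold change 0.17, adjusted p = 0.534). In parental cells it was at 42.2, 58.9 and 44.8 with olaparib and at 257, 226 and 259 after CDDP (log2 fold change 2.34, adjusted p = 3.64e-19). The groups overlapped in OlaR cells and were far apart in parental cells, and the difference was -2.17 ± 0.19 SE on the log2 scale (adjusted p = 9.18e-12).

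*SLC7A11*, the cystine-glutamate exchanger, went in opposite directions. It was at 236, 246 and 200 in OlaR cells and fell to 154, 139 and 150 with CDDP (log2 fold change -0.61 ± 0.12 SE, adjusted p = 0.00138), and it rose from 165, 93.7 and 129 to 319, 269 and 302 in parental cells (1.23, adjusted p = 2.16e-10). *SLC7A5*, the large neutral amino acid transporter, fell in OlaR (-0.44, adjusted p = 0.00389) and rose in parental cells (0.48, adjusted p = 0.000875). *STC2*, a secreted glycoprotein, averaged 347 ± 27.9 and 337 ± 4.50 in OlaR cells without and with CDDP, and 252 ± 19.5 and 565 ± 29.2 in parental cells. *CEBPB*, a C/EBP factor, fell in OlaR cells from 3744 ± 250 to 2756 ± 16.7 (adjusted p = 1.38e-05). *ATF3*, *NUPR1* and *PHGDH* rose in OlaR cells, by log2 fold changes of 0.55, 0.34 and 0.28, but all 3 lost the call without OlaR replicate 1. *ATF3* also lost it without OlaR replicate 2 or replicate 1 or 3 with CDDP (adjusted p up to 0.221), and *PHGDH* without OlaR replicate 2 or 3 or replicate 2 or 3 with CDDP (up to 0.125). *ATF4* itself was at 5687 to 5933 adjusted reads without and 5621 to 5967 with CDDP in OlaR cells.

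**Figure D3:**
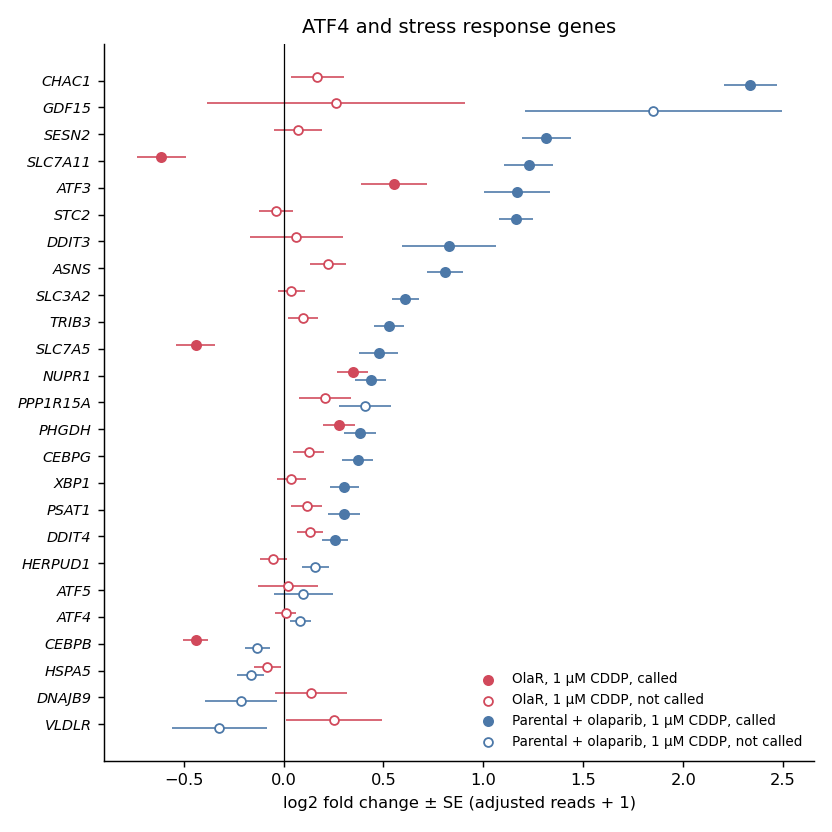
Log2 fold change with 1 μM CDDP (horizontal, with the SE as a bar) of the 25 ATF4 and stress response genes (vertical) in OlaR cells (red) and in parental cells with olaparib (blue), filled where called by limma. 16 genes are filled in blue to the right of 0, and 3 genes are filled in red on each side.

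The promoter of *CHAC1* (chr15:40953221-40953470, GRCh38.p14, plus strand) is shown because this gene had the smallest p of the difference, with a match to the C/EBP-ATF response element TGATGCAA in capitals, which lies on the other strand and begins 209 bases before the start. The element was found in 2 of 23 promoters of the list and in 0.333% of those of all genes tested.
CHAC1: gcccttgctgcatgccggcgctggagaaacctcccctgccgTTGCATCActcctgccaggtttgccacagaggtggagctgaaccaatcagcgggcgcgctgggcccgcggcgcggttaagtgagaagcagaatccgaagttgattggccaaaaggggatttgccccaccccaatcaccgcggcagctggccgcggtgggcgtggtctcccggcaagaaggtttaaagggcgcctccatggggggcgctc

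DNA repair lists held 0 to 2 calls each, against 1.84% higher and 2.91% lower of all genes. None of 14 translesion synthesis genes was called by limma, edgeR, DESeq2 or voom (1 higher and 1 lower at an unadjusted p under 0.05), and this held for *POLH*, DNA polymerase eta, at 113 to 131 adjusted reads without and 106 to 140 with CDDP (log2 fold change 0.03, adjusted p = 0.93). Of 32 homologous recombination and Fanconi genes 1 rose, *FANCG* (log2 fold change 0.55, adjusted p = 0.00138), and 1 fell. *BRCA1* was at 441, 447 and 431 without and at 464, 493 and 456 with CDDP (log2 fold change 0.10, adjusted p = 0.569). The groups did not overlap for *BRCA1*, as for 23.3% of all genes. Of 18 nucleotide excision repair genes *RPA2* rose (0.25, adjusted p = 0.0247). *PARP1*, a target of olaparib, was at 808 to 864 without and at 844 to 990 with CDDP (0.17, adjusted p = 0.158). *FEN1* and *EZH2* were the 2 that rose of 22 PARP, base excision and resistance genes, but *EZH2* lost the call whichever of the 6 libraries was left out (adjusted p up to 0.17). *RPA2* lost it without OlaR replicate 1 or 2 or replicate 1 or 2 with CDDP (up to 0.108).

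The lists of p53 targets, immediate early genes, hypoxia-response genes and TGF-beta family and ID genes held 1 to 3 calls each. Of all genes 1.84% were higher and 2.91% lower. Of 23 p53 targets *GADD45A*, a stress sensor, rose from 250, 204 and 203 to 264, 292 and 293 adjusted reads (log2 fold change 0.37 ± 0.11 SE, adjusted p = 0.0358), and it was at 420, 461 and 430 with 2.5 μM. Its call was lost without OlaR replicate 2 or 3 or replicate 2 or 3 with CDDP (adjusted p up to 0.149). *DUSP6*, a phosphatase of ERK, was at 21.3 to 30.1 without and 25.9 to 31.0 with CDDP (log2 fold change 0.09, adjusted p = 0.932). Of 22 immediate early genes *JUN* rose (0.26, adjusted p = 0.0401) while *JUNB* and *MYC* fell (-0.34 and -0.41), against 9 higher and 2 lower in parental cells. *MYC* lost the call whichever of the 6 libraries was left out, *JUNB* without each of them except OlaR replicate 3, and *JUN* without OlaR replicate 3 or replicate 2 or 3 with CDDP (adjusted p up to 0.335). *ADM*, adrenomedullin, was the gene that rose among 20 hypoxia-response genes (0.81, adjusted p = 0.00161). In parental cells 0 of these 20 genes were higher and 6 lower by limma (30% lower against 2.97% of all genes). The difference between the cells passed for 3 of the 20, all positive (15% against 1.39% of all genes). *ID1*, a target of BMP signalling, fell from 449 ± 16.1 to 275 ± 13.2 (-0.70, adjusted p = 0.000871) and was called in every fit without a library.

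Of 20 DNA damage checkpoint genes 3 rose (15% against 1.84% of all genes), namely *CLSPN*, *CDC25A* and *GADD45A*, which are described with the lists above, and none fell by limma (2 at an unadjusted p under 0.05, and 0 by edgeR). The lists not yet described held no more than 2 calls each. *MCL1*, an anti-apoptotic protein, fell among 19 BCL2 family and death receptor genes (-0.22, adjusted p = 0.0112), *FDFT1* was 1 of 2 that fell among 20 cholesterol synthesis genes, *BST2* fell among 21 interferon-stimulated genes and *KRT19* among 16 basal and keratin genes. *DUSP10* rose among 20 MAPK feedback genes, on at most 3 reads in every library without CDDP. Each of these named genes except *KRT19*, which lost its call without replicate 3 with CDDP alone, lost it without at least 2 of the 6 libraries, and *DUSP10* whichever was left out (adjusted p up to 0.113). Neither limma nor edgeR, DESeq2 or voom made a call among 10 NF-kB targets, 8 genes of the EGF receptor family and 19 platinum transport, glutathione and metallothionein genes, with 0, 1 and 4 genes at an unadjusted p under 0.05.

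**Figure D4:**
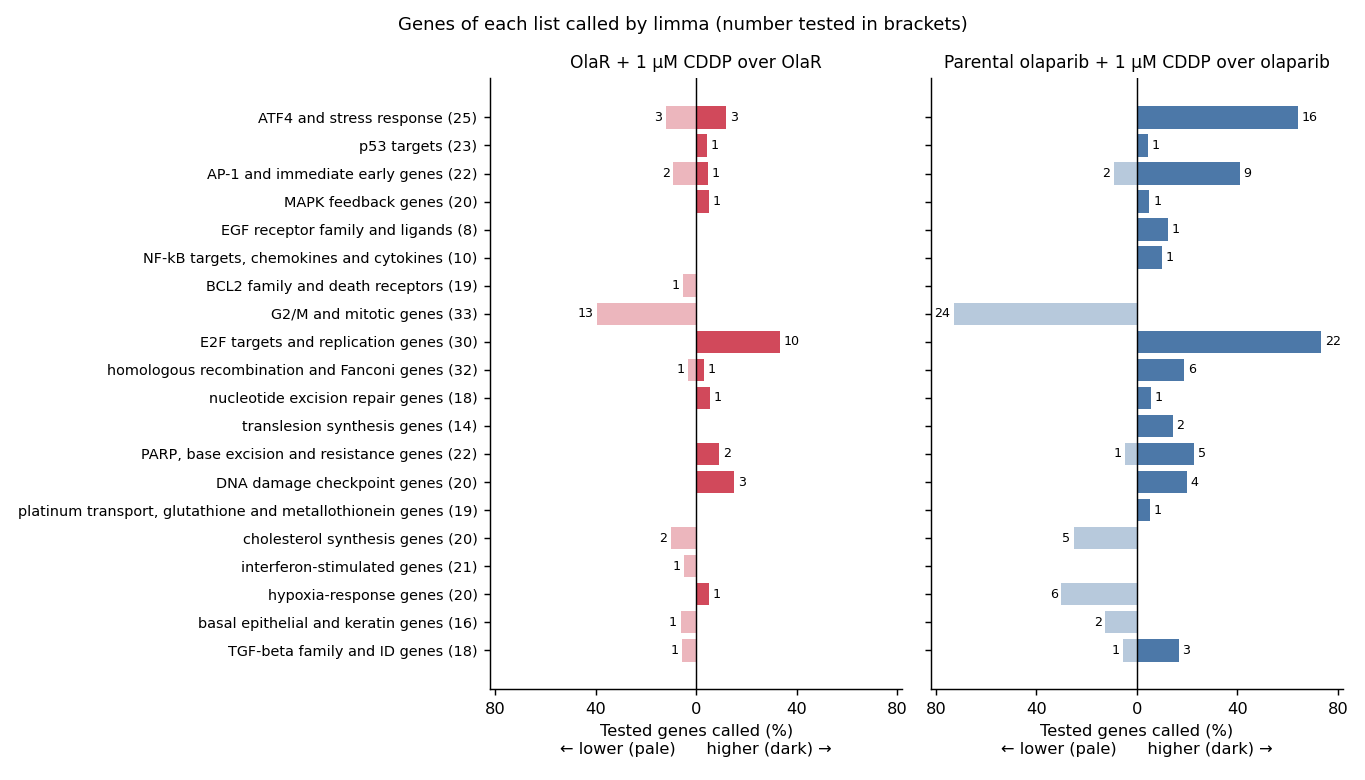
Percentage of the tested genes of each list that limma called higher (dark, right) or lower (pale, left) with 1 μM CDDP in OlaR cells (left panel) and in parental cells with olaparib (right panel), with the number of genes beside each bar. The longest bars in OlaR cells are those of 13 mitotic and 10 replication genes, and the ATF4 list has 16 higher in parental cells against 3 in OlaR cells.

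Among the genes with the smallest p, which were named after their values were seen, *SFN* (14-3-3 sigma, a regulator of the G2 checkpoint) was at 2575, 2536 and 2318 adjusted reads without CDDP and rose to 3143, 3458 and 3274 (log2 fold change 0.41 ± 0.06 SE, adjusted p = 1.38e-05). It was at 3447 to 3771 and 3707 to 3843 in parental cells without and with CDDP, and the difference passed the test (0.36, adjusted p = 0.00801). *RNF8*, a ubiquitin ligase recruited to DNA breaks, rose from 300 ± 8.53 to 423 ± 20.5 (adjusted p = 5.65e-05). *IGFBP3*, which binds insulin-like growth factors, fell from 4501 ± 265 to 3384 ± 31.0, and the receptor *KIT* fell from 1371, 1319 and 1238 to 982, 878 and 966. In parental cells both fell as well, with log2 fold changes of -0.44, against -0.41 for *IGFBP3* and -0.48 for *KIT* in OlaR cells. *CEBPB*, *PFN1*, *SEC61G*, *NSUN2*, *SSBP3* and *ZDHHC20* also belonged to the genes of smallest p and fell, by log2 fold changes from -0.46 to -0.32.

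Of the 240 genes that rose in OlaR cells 34 also rose in parental cells with olaparib (14.2% of the first list and 11.4% of the 299 of the other), and of the 379 that fell 54 also fell there (14.2% and 14.0% of 386). Of all 13012 genes tested 2.3% rose and 2.97% fell in parental cells. The 88 genes called in the same direction in both held 12 of the 33 mitotic genes tested, 8 of the 30 replication genes and 2 of the 390 genes over 300 kb. A further 11 genes were called in opposite directions. *SLC7A11*, *SLC7A5*, *JUNB* and *TUFT1* fell in OlaR and rose in parental cells, whereas *SNORA79*, *SNORA12*, *SCARNA22*, *SCARNA18*, *MRPL34*, *PTMA* and *GADD45GIP1* rose in OlaR and fell in parental cells. The 5 genes with the smallest p of the difference were *CHAC1*, *SLC7A11*, *STC2*, *SNHG1* and *SNORA79*. *SNHG1*, a host gene of small nucleolar RNAs, averaged 5003 ± 320 and 4332 ± 94.7 in OlaR cells without and with CDDP (adjusted p = 0.0851) and 2498 ± 182 and 3922 ± 689 in parental cells.

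**Figure D5:**
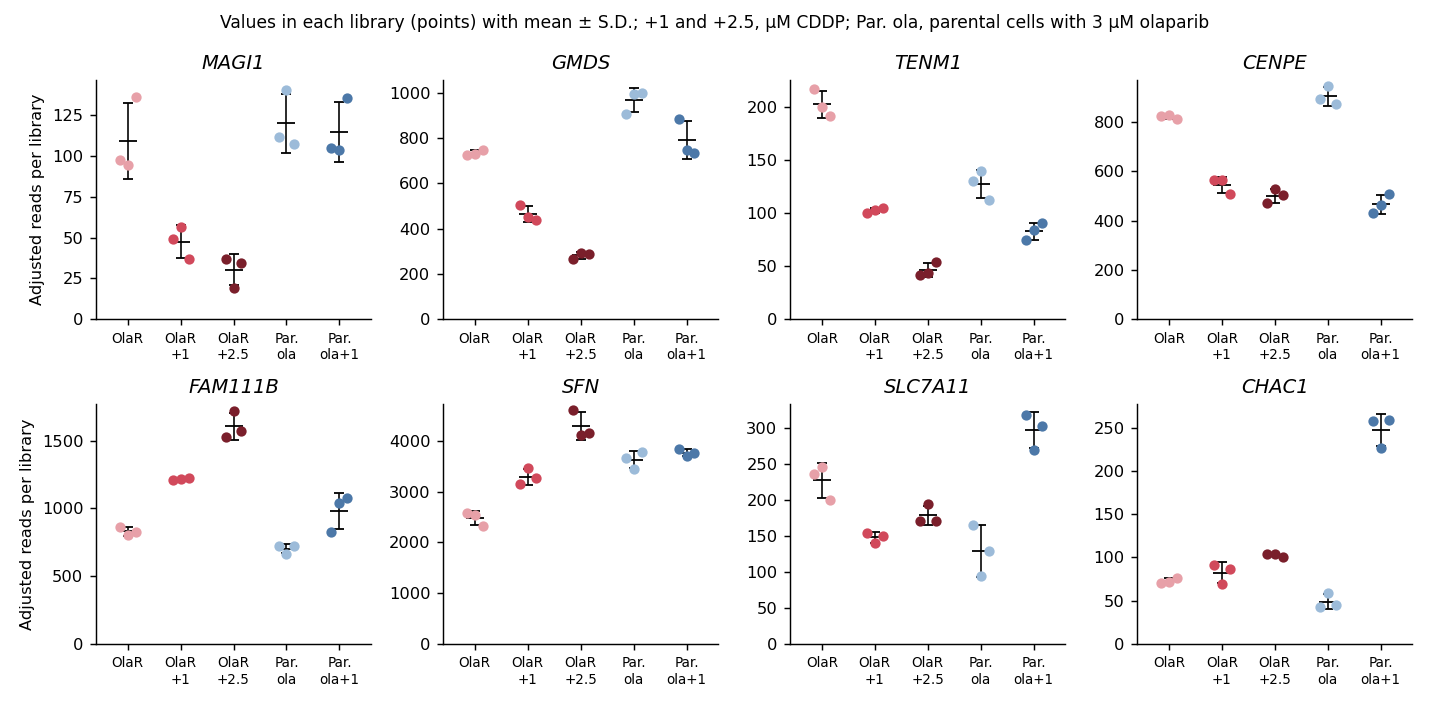
Adjusted reads (vertical) of 8 genes in each library (points, with mean ± S.D.) of OlaR cells with 0, 1 and 2.5 μM CDDP and of parental cells with 3 μM olaparib without and with 1 μM CDDP (horizontal). The points of *GMDS* and *TENM1* lie lower and those of *FAM111B* and *SFN* higher at each dose in OlaR cells without overlap, and *CHAC1* is at 226 to 259 in parental cells with CDDP and lower in the other 4 groups plotted.

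With 2.5 μM CDDP 967 genes were higher (7.43% of those tested) and 1460 lower (11.2%) than in OlaR cells without CDDP, and 247 of the 390 genes over 300 kb were lower and none higher by limma (median -0.82), against 279 and 1 at an unadjusted p under 0.05 and 233 and 0 by edgeR. The 2 doses share the libraries without CDDP, so their values are given side by side only. From 1 to 2.5 μM 361 genes rose (2.77%) and 617 fell (4.74%), and 164 of the 390 genes over 300 kb fell. The 5 genes with the smallest p of this step were *CAMK1D*, *SHANK2*, *JARID2*, *FTO* and *CTBP2*, which span 178 to 785 kb. *CAMK1D*, a calcium-dependent kinase, was at 143, 166 and 218 without CDDP, at 128, 134 and 120 with 1 μM and at 59.4, 47.1 and 36.6 with 2.5 μM (step -1.42, adjusted p = 5.23e-11). *SHANK2*, a scaffold protein, was at 106, 113 and 103, at 59.7, 50.2 and 60.2 and at 17.2, 8.96 and 9.38. Of the DEGs at 1 μM 14 of 29 higher and 11 of 22 lower were called in the same direction at 2.5 μM and none in the other. The 2.5 μM libraries held 2070301 to 4455837 reads.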

How the data were processed

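RNA of the 54 libraries was sequenced by the submitters from the 3′ end (QuantSeq, 50-base reads). Per the labels, reads were aligned to hg38 with STAR and counted with HTSeq, and the authors deposited signal values, namely edgeR pseudo-counts, in which read counts were moved to a common library size of 5585170. These values were inverted to whole reads, and 100% of 1483380 values were given back within a relative 1e-08.

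The main test was limma (version 3.58.1) with a mean-variance trend on log2 of the adjusted reads plus 1, in place of the planned edgeR fit because the deposited values are no raw counts. All 27 MDA-MB-468 libraries of 9 conditions shared 1 estimate of the spread. The 13012 genes with at least 10 adjusted reads in at least 3 libraries were tested, and p-values were adjusted by Benjamini-Hochberg over all of them. Fold changes are on the scale of adjusted reads plus 1, which understates those of low genes. "Called" means an adjusted p of at most 0.05. A difference between OlaR and parental cells was tested as an interaction. edgeR 4.0.16, DESeq2 1.42.0 and voom on the recovered reads, other pseudocounts (0.5, 5) and filters (30, none), a replicate block, other sets of libraries and fits without each library were alternatives. The edgeR and DESeq2 fits were added after seeing the data.

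Genes named by size were the 12 largest fold changes per direction among DEGs with a mean of at least 10 adjusted reads and no overlap; called list members, the 5 smallest p of the difference and of the dose step, and genes chosen after their values were seen were named besides. The members and all gene lists were chosen with earlier results of these data known. Same-numbered libraries did not deviate together (r of 0.005, 0.002 and -0.009 across genes), so the numbers were not taken as pairs. Replicates were no copies of each other (chi-square per degree of freedom 2.04 to 2.63). Scripts were tested on simulated data. A few genes are not reported here.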

Additional observations from a re-analysis of the deposited data

Results flagged for a closer look

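The change with 1 μM CDDP differed between OlaR and parental cells, by the limma test of the difference, for the 14 genes listed here. They are not all of the genes named in the report that passed this test. Each value is the log2 fold change in OlaR cells minus that in parental cells with olaparib, and olaparib dose and resistance cannot be told apart in it. The difference was -2.17 for *CHAC1* (0.17 against 2.34, adjusted p = 9.18e-12), -1.84 for *SLC7A11* (-0.61 against 1.23, adjusted p = 1.45e-10) and -1.20 for *STC2* (-0.04 against 1.16, adjusted p = 4.67e-10). These 3 genes of the ATF4 list rose in parental cells, whereas in OlaR cells *SLC7A11* fell and the other two were not called. For *SLC7A5* of the same list it was -0.91 (-0.44 against 0.48, adjusted p = 2.02e-05), and for *CEBPB* -0.31 (-0.44 against -0.13, adjusted p = 0.0424).

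For the small nucleolar RNA host *SNHG1* the difference was -0.85 (-0.21 against 0.64, adjusted p = 1.62e-07), and for *SNORA79*, a small nucleolar RNA of few reads in OlaR cells, 1.56 (0.58 against -0.98, adjusted p = 3.14e-06). The immediate early genes *JUN* and *JUNB* differed by -0.65 (0.26 against 0.91, adjusted p = 0.000266) and -0.75 (-0.34 against 0.41, adjusted p = 0.00124). Cyclin B1 (*CCNB1*) fell in both cells and differed by 0.52 (-0.34 against -0.85, adjusted p = 0.000465).

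The long genes *MAGI1* and *NCALD* differed by -1.12 (-1.19 against -0.06, adjusted p = 0.0144) and -1.29 (-1.01 against 0.28, adjusted p = 0.0431). *BST2*, an interferon-stimulated gene, differed by -0.47 (-0.34 against 0.13, adjusted p = 0.0214), and *TREX1* by 1.91 (1.33 against -0.58, adjusted p = 0.045).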

How the results depend on the processing

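No call was reversed under any alternative run. For single named genes the call was lost in 287 repeats of the test and kept its direction and side of the threshold in 1535. DEGs in OlaR cells at 1 μM were few enough to depend on the test. Against 29 higher and 22 lower there were 240 and 379 with no limit on the fold change, 6 and 4 at 4-fold, 2 and 4 with voom, 9 and 12 with edgeR under either size factor and 2 and 9 with DESeq2. The higher count was 15 with pseudocount 5, 19 with a filter of 30, 13 with only the groups compared and 19 with only the OlaR libraries, and the lower count was 46 with no filter. Without 1 library they ranged from 13 to 28 and from 16 to 29. The 23 parental DEGs became 685 with no limit, 3 at 4-fold, 13 with only the groups compared, 38 with edgeR under either size factor and 14 with DESeq2, and 17 to 37 without 1 library, with 36 or 37 without olaparib replicate 1 or 3 or CDDP replicate 3. The 377 differences between the cells became 33 at 2-fold, 181 with no filter, 183 with only the groups compared and 202 to 452 without 1 library. The 311 DEGs at 2.5 μM became 2427 with no limit, 51 at 4-fold, 174 with voom and 263 to 305 without 1 library. The 104 DEGs of the step became 978 with no limit, 18 at 4-fold, 164 with no filter, 24 with voom, 43 with edgeR under either size factor, 46 with DESeq2 and 82 to 108 without 1 library. The 51 long genes that fell were 76 with only the groups compared, 57 with only the OlaR libraries, 33 with no filter and 23 with voom. Without 1 library they were 25 to 37, the 13 mitotic genes 10 to 12 and the 10 replication genes 5 to 9. With no filter the replication genes were 6. The cause of these shifts was not tested. With the replicate block 29 DEGs were higher and 21 lower, and 581 genes were called against 619, of which 577 were shared, and among named genes *ADAMTSL5*, *JUN*, *CCNE2* and *EZH2* were not called. Of the 51 DEGs 18 rested on at most 3 reads in every library of a group, and the part of depth in this was not tested.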

Other observations

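Small nucleolar and small Cajal body RNAs, which guide the modification of ribosomal and spliceosomal RNA, were taken as a family after the values were seen. Of 98 tested 5 rose and 0 fell in OlaR cells with 1 μM CDDP by limma, and 70 had a positive and 28 a negative log2 fold change (median 0.33 against -0.01 for all genes). The shares of 5.1% higher and 0% lower compare with 1.84% and 2.91% of all genes. In parental cells with olaparib 1 rose (1.02% against 2.3% of all genes) and 6 fell (6.12% against 2.97%), with a median of -0.19. The test of the difference called 9, all positive (9.18% against 1.39% of all genes). Reads of this family were few, with a median of 12.8 adjusted reads, and short RNAs without a poly(A) tail are not the target of the library kit. Among 79 mitochondrial ribosomal protein genes, also chosen after seeing the values, 4 rose and 1 fell in OlaR cells, and 0 rose and 9 fell in parental cells by limma, which is 5.06% higher against 1.84% of all genes in OlaR cells and 11.4% lower against 2.97% in parental cells.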
